A study of Mus musculus with 8 samples.

Results

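The genes described here are 10 genes of the fibroblast growth factor (FGF) system: the secreted ligands Fgf4, Fgf5, Fgf8, Fgf15 and Fgf17, the receptor tyrosine kinases Fgfr1, Fgfr2, Fgfr3 and Fgfr4, and Fgfbp1, which codes for a secreted FGF-binding protein. They were chosen by gene symbol, through the pairing of Ensembl identifiers and symbols in the deposited comparison tables, and each symbol matched 1 of the 47729 identifiers counted. All 10 were among the 16515 genes that passed the filter on low counts and were tested. Fgf5 passed that filter through the WT libraries alone, so it had to be higher there than elsewhere.

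RNA was sequenced from E14TG2a mouse embryonic stem (ES) cells of the 129/Ola strain after 48 h in 15% serum with LIF, a cytokine that maintains self-renewal. The 4 groups had 2 libraries each: WT cells; QKO cells, with Tcf7, Tcf7l1, Tcf7l2 and Lef1 all -/- and therefore no full-length TCF/LEF factor, the DNA-binding partners of beta-catenin in the Wnt pathway; QT7 cells, in which 1 copy of TCF7 was put back; and QT7L1 cells, in which 1 copy of TCF7L1 was put back. QT7 and QT7L1 are otherwise deficient in the same factors as QKO, and are named here by their titles, because their genotype tags give the reverse (TCF7L1 +/- for QT7 and TCF7 +/- for QT7L1). The engineered groups were each represented by clone A (replicate 1) and clone B (replicate 2), and WT by biological replicates without a clone name, so p-values measure only the spread between these clones and replicates, pooled over the 4 groups. The design asks what the loss of the 4 factors does to expression and what returns with either factor.

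Libraries held 31573536 to 43362627 counts. Whole-gene counts of the targeted genes were above 0 in all 8 libraries and do not show whether a transcript was full length. Tcf7 was at 59.6 and 61.9 CPM (counts scaled to library size) in WT and at 7.97 to 20.9 in the other 6 libraries, Tcf7l1 at 68.8 and 73.6 in WT and 22.4 to 39.1 elsewhere, Tcf7l2 at 4.72 to 8.14 in all 8, and Lef1 at 6.57 and 2.4 in WT and 0.212 to 1.33 elsewhere. These levels do not settle which of the 2 factors QT7 and QT7L1 carry. The 12 ES cell markers were present in every library, with summed levels of 7113 to 8558 CPM. Markers of other cell types varied between replicates of a group, and are given after the ligands, the receptors and Fgfbp1.

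FGF ligands bind receptor tyrosine kinases at the cell surface together with heparan sulfate, and the activated receptors signal through adaptors and RAS to the ERK kinases. In ES cells Fgf4 is the main autocrine ligand, and ERK activity moves cells out of the naive state; Fgfr1 and Fgfr2 are the receptors through which epiblast and primitive endoderm of the blastocyst read that signal. Fgf5 marks the formative and primed epiblast, Fgf8 the epiblast and primitive streak, Fgf15 is a ligand of the FGF19 subfamily, and Fgf17 belongs with Fgf8 to the same subfamily.

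**Figure D1:**
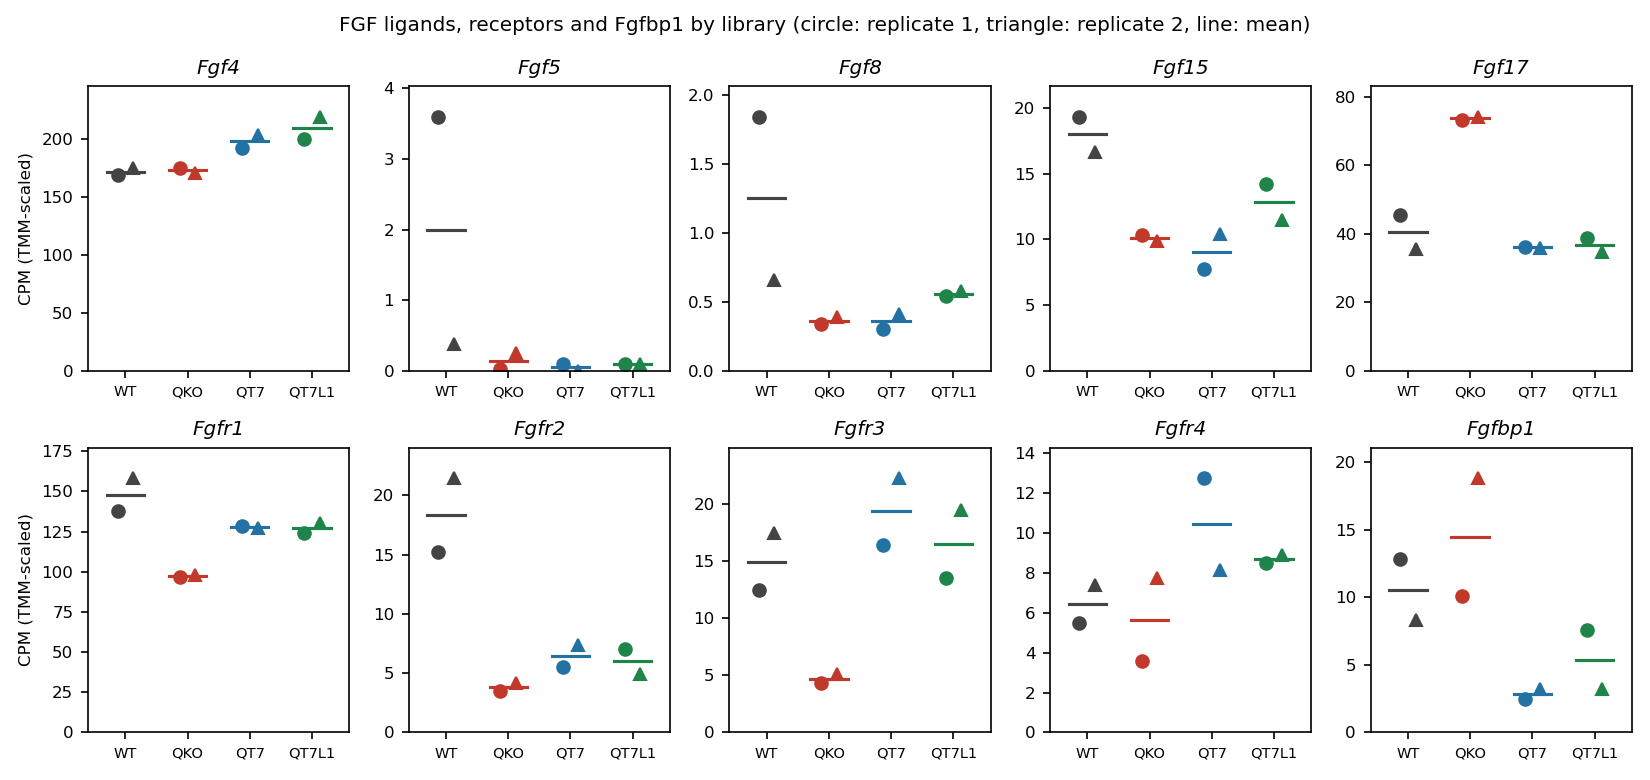
Level of each gene in CPM, scaled by library size, in the 8 libraries (y axis; each panel has its own scale starting at 0) by group (x axis); circles are replicate 1, triangles replicate 2 and lines group means. Both QKO libraries stand highest for Fgf17 (73.3 and 74.2) and lowest for Fgfr1, Fgfr2 and Fgfr3, and both WT libraries stand highest for Fgfr2 (15.2 and 21.5).

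In QKO against WT, 1 of the 10 genes was higher (Fgf17) and 5 were lower (Fgf8, Fgf15, Fgfr1, Fgfr2 and Fgfr3) at an adjusted p under 0.05 in edgeR's quasi-likelihood test. The background was 26.4% of all genes tested called in either direction, 11.7% higher and 14.7% lower. The libraries of QKO and WT did not overlap for 7 of the 10 genes, and for 69.4% of all genes tested; Fgf5 is among the 7, and its place there was favoured by the filter. The count fell to 4 without WT replicate 1, QKO replicate 1 or QKO replicate 2, and Fgf17, Fgfr1, Fgfr2 and Fgfr3 were called under all 13 alternative settings. In the authors' deposited table for WT and QKO, Fgf5, Fgf15, Fgf17, Fgfr1, Fgfr2 and Fgfr3 had an adjusted p under 0.05, and Fgf8 did not. The share of all genes called in that table was not counted.

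Among the ligands, Fgf4 was the most abundant per kilobase of exon in every library (52.8 to 68.6 CPM per kb), followed by Fgf17 (20.5 to 43.9 CPM per kb) and Fgf15 (2.54 to 6.33 CPM per kb). Fgf8 and Fgf5 were at or below 1.44 CPM per kb in every library. Summed over the 5 ligands, the level was 101.8 and 100.9 CPM per kb in QKO and 81.76 to 93.26 CPM per kb in the other 6 libraries. Fgf4 made up 53.8 and 52.9% of that sum in QKO and 59.4 to 73.5% elsewhere.

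Fgf4 (chromosome 7, 144847367 to 144865243 on GRCm38) had levels of 169 and 175 CPM in the WT libraries, 175 and 171 CPM in those of QKO, 192 and 203 CPM in QT7 and 200 and 219 CPM in QT7L1. WT and QKO overlapped, and the log2 difference between them was 0.01 ± 0.09 (standard error, SE) with a 95% interval of -0.19 to 0.21 (adjusted p = 0.957, edgeR). The 4 rescued libraries were above all 4 of WT and QKO. Against QKO the log2 difference was 0.19 ± 0.09 in QT7 (adjusted p = 0.136) and 0.28 ± 0.09 in QT7L1 (adjusted p = 0.0415, edgeR); the QT7L1 call was lost under 10 of 13 alternatives, with adjusted p up to 0.224.

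Fgf17 (chromosome 14, 70636203 to 70642268) had levels of 45.5 and 35.5 CPM in the WT libraries, 73.3 and 74.2 CPM in those of QKO, 36.1 and 35.9 CPM in QT7 and 38.9 and 34.6 CPM in QT7L1. Both QKO libraries were above the other 6, as for 19.6% of all genes tested, and those 6 overlapped. Fgf17 rose by a log2 difference of 0.87 ± 0.13 in QKO over WT (1.82-fold, adjusted p = 0.0022), and was lower than in QKO by 2.05-fold in QT7 (log2 -1.03 ± 0.13, adjusted p = 0.00126) and by 2.01-fold in QT7L1 (log2 -1.0 ± 0.13, adjusted p = 0.00111, all edgeR). These 3 calls held under all 13 alternatives. Its share of the summed ligand level per kb was 42.7 and 43.5% in QKO against 22.0 to 30.3% elsewhere. The levels of Fgf17 in the rescued lines were not called different from WT, with 95% intervals of the log2 difference from -0.46 to 0.13 in QT7 and from -0.43 to 0.16 in QT7L1.

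Fgf15 (chromosome 7, 144896531 to 144900953) had levels of 19.3 and 16.6 CPM in the WT libraries, 10.3 and 9.87 CPM in those of QKO, 7.76 and 10.4 CPM in QT7 and 14.2 and 11.5 CPM in QT7L1. Both WT libraries were the highest, as for 8.14% of all genes tested, and QKO and QT7 overlapped. Fgf15 fell by 0.83 on the log2 scale in QKO (SE 0.20, 1.78-fold, adjusted p = 0.0128), a call lost without WT replicate 1 (adjusted p = 0.07), QKO replicate 1 (0.0618) or QKO replicate 2 (0.0928). It was not called against QKO in either rescued line, at -0.15 ± 0.20 in QT7 (adjusted p = 0.603) and 0.35 ± 0.20 in QT7L1 (adjusted p = 0.205). Of its exonic bases 24.9% lie under the antisense gene Gm26793, which had 2 to 27 counts per library.

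Fgf4, Fgf15 and Fgf3 lie side by side on chromosome 7, with Fgf3 2.9 kb below Fgf4 and Fgf15 31.3 kb above it. Of these 3 neighbouring ligand genes only Fgf15 was called in QKO against WT. Fgf3 was at a mean of 2.51 CPM in WT and 2.38 in QKO (log2 -0.09 ± 0.31, adjusted p = 0.861).

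Fgf8 (chromosome 19, 45736798 to 45742915) had levels of 1.85 and 0.657 CPM in the WT libraries, 0.341 and 0.388 CPM in those of QKO, 0.306 and 0.414 CPM in QT7 and 0.545 and 0.579 CPM in QT7L1. Both WT libraries were the highest, but replicate 1 stood well above replicate 2. The log2 difference of QKO from WT was -1.75 ± 0.52 (adjusted p = 0.0333, edgeR), and without WT replicate 1 it was -0.84 ± 0.53 (adjusted p = 0.296). The call was lost under 6 of 13 alternatives, DESeq2 among them (adjusted p = 0.0657). No comparison of Fgf8 with the rescued lines was called in the main edgeR fit. The log2 difference from QKO was -0.02 ± 0.56 in QT7 and 0.62 ± 0.55 in QT7L1. From WT it was -1.76 ± 0.51 in QT7 (adjusted p = 0.0792) and -1.13 ± 0.50 in QT7L1 (adjusted p = 0.316). Without the filter on low counts, edgeR called Fgf8 lower in QT7 than in WT (adjusted p = 0.00412).

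Fgf5 (chromosome 5, 98254184 to 98277030) had 115 and 17 counts in the WT libraries, 1 and 9 counts in those of QKO, 4 and 0 counts in QT7 and 3 and 3 counts in QT7L1, or 3.6 and 0.385 CPM in WT and at most 0.249 CPM in the other 6 libraries. A count of 0 in QT7 replicate 2 allows a level of up to 0.069 CPM (3 counts; counting error only). WT was above the other groups without overlap, which the filter favours for this gene. The log2 difference of QKO from WT was -3.73 ± 1.23 (95% interval -6.57 to -0.88) and was not called in the main edgeR fit (adjusted p = 0.0589). Fgf5 was called lower in QKO in edgeR without the filter on low counts (log2 -3.733, adjusted p = 5.06e-10). DESeq2 also called it lower (log2 -3.789, adjusted p = 0.00471). With 1 library left out at a time, the log2 difference ran from -5.842 to -1.402. In the authors' deposited table for WT and QKO its log2 fold change was 1.21 for WT over QKO with an adjusted p of 0.000235. The settings of the authors' fit are not given, so the size of that fold change is not compared with the estimates above.

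Markers of epiblast and primitive streak were read beside these ligands. The summed level of all 16 formative and primed epiblast markers came to 852.6 and 735.2 CPM for WT, 627 and 650.5 CPM for QKO, 559 and 524.1 CPM for QT7 and 523.5 and 495.4 CPM for QT7L1, with none at 0 in any library. Dnmt3a (150 to 223 CPM), Dnmt3b (125 to 335 CPM) and Nodal (84.5 to 126 CPM) carry most of these sums. Of these 16 markers 2 were called higher in QKO against WT (Foxd3 and Sox3) and 6 lower. The shares of all genes tested called in those directions were 11.7% and 14.7%. The 6 lower ones include Lef1, which is deleted in QKO. The 13 streak markers summed to 29.64 CPM in WT replicate 1, 14.8 in WT replicate 2 and 21.51 to 29.39 elsewhere, with 1 of them (Cer1) at 0 throughout. Single streak markers went different ways: T was at 9.7 CPM in WT replicate 1 and 0.357 to 0.68 CPM in the other 7 libraries, while Evx1 was at 0.47 CPM in WT replicate 1, 0.0907 CPM in WT replicate 2 and 4.41 and 3.96 CPM in the QKO libraries. The part of such cells in the levels of Fgf5, Fgf8 and Fgf15 was not tested, and in these bulk libraries fewer cells of a type and less RNA per cell cannot be told apart.

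Among the receptors, Fgfr1 was the most abundant per kilobase of exon in every library (9.82 to 16.0 CPM per kb), and the other receptors were each at or below 3.6 CPM per kb. Summed over the 4 receptors, the level was 18.68 and 22.63 CPM per kb for WT, 11.76 and 13.24 for QKO, 19.43 and 19.02 for QT7 and 17.54 and 18.88 for QT7L1. The QKO libraries had the lowest sums of the 8. Fgfr1 supplied 66.9 to 83.5% of the sum in every library.

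**Figure D2:**
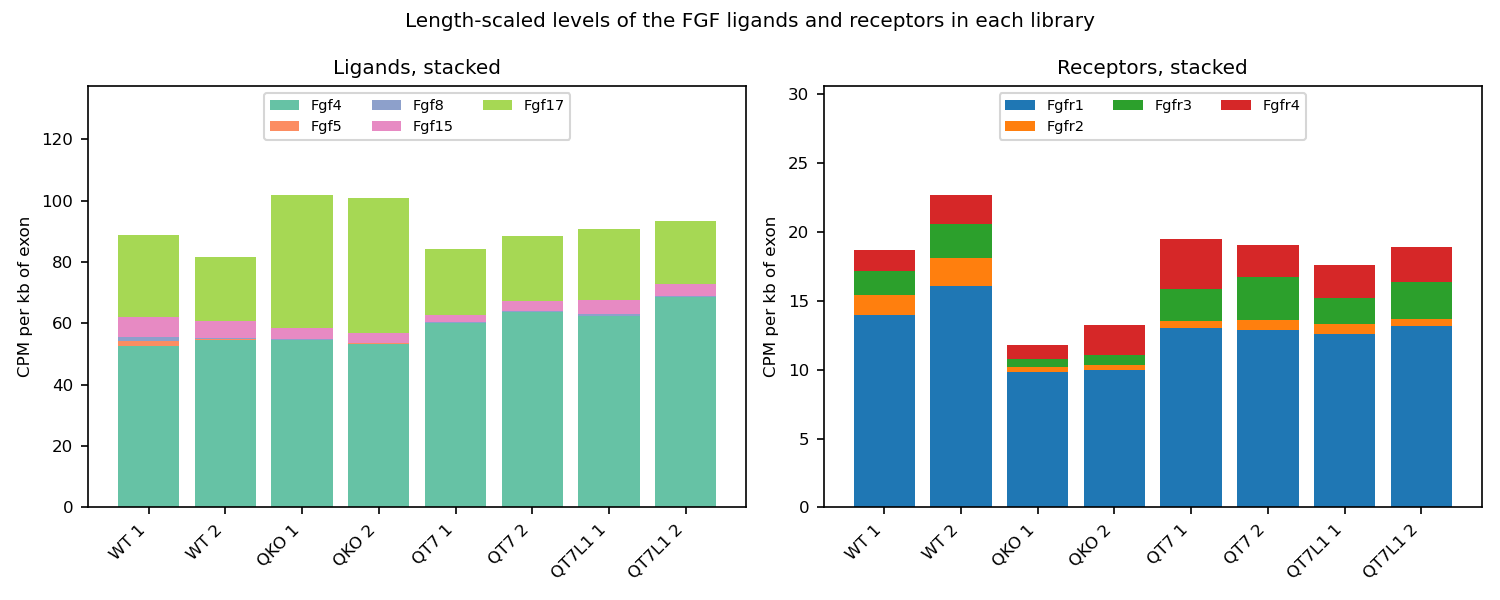
Stacked levels of the 5 ligands (left) and 4 receptors (right) in CPM per kilobase of exon (y axis, from 0) in each library (x axis); each colour is 1 gene and bars are single libraries without error. Fgf17 takes 42.7 and 43.5% of the ligand sum in QKO, and the receptor sum is lowest in the QKO libraries (11.76 and 13.24).

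Fgfr1 (chromosome 8, 25513654 to 25575718) had levels of 137 and 158 CPM in the WT libraries, 97.0 and 98.2 CPM in those of QKO, 128 and 127 CPM in QT7 and 124 and 130 CPM in QT7L1. The groups fell in the order WT, rescued lines, QKO, with QT7 and QT7L1 overlapping and neither called different from WT. Fgfr1 fell by 0.60 on the log2 scale in QKO (SE 0.10, 1.52-fold, adjusted p = 0.00287). Against QKO it rose in QT7 by 0.39 ± 0.10 (1.31-fold, adjusted p = 0.0158) and in QT7L1 by 0.38 ± 0.10 (1.30-fold, adjusted p = 0.0161). Leaving out either QKO replicate ended both of these rises, with adjusted p of 0.0762 to 0.0895, and leaving out either QT7L1 replicate ended that of QT7L1 (0.0529 and 0.0923).

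Fgfr3 (chromosome 5, 33721674 to 33737068) had levels of 12.5 and 17.4 CPM in the WT libraries, 4.28 and 5.10 CPM in those of QKO, 16.4 and 22.3 CPM in QT7 and 13.5 and 19.5 CPM in QT7L1. Both QKO libraries were the lowest of the 8, as for 21.5% of all genes tested, and WT, QT7 and QT7L1 overlapped. Fgfr3 fell in QKO by 1.67 on the log2 scale (SE 0.25, 3.18-fold, adjusted p = 0.0022). It was 4.12-fold higher in QT7 than in QKO (log2 2.04 ± 0.25, adjusted p = 0.00122) and 3.51-fold higher in QT7L1 (log2 1.81 ± 0.25, adjusted p = 0.00135, edgeR). All 3 calls held under the 13 alternatives. Its share of the receptor sum per kb was 5.08 and 5.38% in QKO and 9.32 to 16.4% elsewhere.

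Fgfr2 had another order. The gene had levels of 15.2 and 21.5 CPM in the WT libraries, 3.48 and 4.16 CPM in those of QKO, 5.54 and 7.38 CPM in QT7 and 7.06 and 4.93 CPM in QT7L1. Both WT libraries were above the other 6, both QKO libraries below them, and QT7 and QT7L1 overlapped in between. Fgfr2 fell in QKO by 2.26 on the log2 scale (SE 0.27, 4.80-fold, adjusted p = 0.000865), a call that held under all 13 alternatives. Against QKO the log2 difference was 0.76 ± 0.26 in QT7 (95% interval 0.18 to 1.34, adjusted p = 0.0547) and 0.65 ± 0.26 in QT7L1 (0.06 to 1.24, adjusted p = 0.0881), neither called. Fgfr2 was called higher in QT7 with DESeq2 (adjusted p = 0.0304) and in edgeR without the filter on low counts (0.00962). In QT7L1 it was called higher in edgeR without that filter (0.0351) and in the fit of the 4 libraries alone (0.0481). Its share of the receptor sum per kb was 7.88 and 9.19% in WT and 2.53 to 3.89% elsewhere.

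The annotated Fgfr2 model on chromosome 7 runs from 130162451 to 133123350 because of 1 long transcript, and 3.04% of its exonic bases are shared on the same strand with Ctbp2, which was at 268.8 to 391 CPM. How reads over shared exons were assigned is not given in the sources used here.

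Fgfr4 (chromosome 13, 55152640 to 55168759) had levels of 5.48 and 7.39 CPM in the WT libraries, 3.57 and 7.73 CPM in those of QKO, 12.8 and 8.17 CPM in QT7 and 8.48 and 8.89 CPM in QT7L1. The QKO clones differed from each other and spanned both WT libraries. The log2 difference of QKO from WT was -0.19 ± 0.35 (95% interval -0.98 to 0.61). From QKO it was 0.88 ± 0.35 in QT7 (adjusted p = 0.0921) and 0.62 ± 0.35 in QT7L1 (adjusted p = 0.217). None of these was called in the main edgeR fit. In edgeR without the filter on low counts, Fgfr4 was called higher than in QKO in QT7 (adjusted p = 0.00196) and in QT7L1 (0.0479). DESeq2 called it higher in QT7 (adjusted p = 0.0319). In the authors' deposited table for QKO and QT7, Fgfr4 had an adjusted p of 0.0496.

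Primitive endoderm markers, of a lineage that depends on FGF receptors, varied with replicate. Their 16 genes summed to 484.3 and 985.5 CPM for WT, 394.7 and 503 CPM for QKO, 779.9 and 602.3 CPM for QT7 and 421.4 and 466.7 CPM for QT7L1, and 2 of the 16 (Afp and Ttr) were at 0 in every library but QT7 replicate 1. Lama1, Lamb1, Col4a1 and Col4a2 carry most of these sums. Of the 14 tested, 1 was called in QKO against WT (Lamb1, 1.9-fold lower). In QT7 against QKO, 2 were called higher, Hnf4a by 5.29-fold and Lamb1 by 1.48-fold. In QT7L1 against QKO, Hnf4a was 2.11-fold higher and Sox7 2.61-fold lower. The shares called over all genes tested were 26.4%, 26.9% and 29.7% in these comparisons, in that order. The part of primitive endoderm cells in the receptor levels was not tested.

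Promoter sequence was compared for the receptors with the largest falls in QKO, and for Fgfbp1. In the RefSeq promoter table (GRCm38.p6), 6 of the 10 genes had an entry (Fgf4, Fgf5, Fgfr2, Fgfr3, Fgfr4 and Fgfbp1), with 2 starts for Fgfr3. The stretches below end before the RefSeq start, run 5′ to 3′ on the gene's strand, and have CpG dinucleotides in capitals. That of Fgfr2 lies within the span of the long Fgfr2 model given above. For Fgfr3 the upstream of its 2 starts was used. The 250 bases before its other start held 24 CpG and 72.8% G and C. These stretches are shown because Fgfr2 and Fgfr3 both fell in QKO while only Fgfr3 was called higher again in the rescued lines. Whether Fgfr2 was called there depended on the fit, as given above. Fgfbp1 is shown because it was called against QKO in both rescued lines but not in QKO against WT. The stretches are chr7:130266809-130267058 (minus strand) for Fgfr2, chr5:33721474-33721673 (plus strand) for Fgfr3 and chr5:43981829-43982049 (minus strand) for Fgfbp1.
Fgfr2: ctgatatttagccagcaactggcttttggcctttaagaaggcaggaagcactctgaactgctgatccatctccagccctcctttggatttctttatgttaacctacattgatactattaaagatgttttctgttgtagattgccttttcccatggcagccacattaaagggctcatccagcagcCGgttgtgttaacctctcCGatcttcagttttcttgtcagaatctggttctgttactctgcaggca
Fgfr3: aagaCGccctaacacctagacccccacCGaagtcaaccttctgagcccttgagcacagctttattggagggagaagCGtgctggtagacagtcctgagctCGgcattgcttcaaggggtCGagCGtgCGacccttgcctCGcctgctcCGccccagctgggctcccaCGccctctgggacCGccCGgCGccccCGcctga
Fgfbp1: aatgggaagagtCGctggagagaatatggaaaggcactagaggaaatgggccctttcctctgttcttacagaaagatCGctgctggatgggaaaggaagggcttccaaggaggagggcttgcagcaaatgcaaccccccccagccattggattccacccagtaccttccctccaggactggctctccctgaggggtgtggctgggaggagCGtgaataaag
The Fgfr2 stretch of 250 bases held 2 CpG and 44.0% G and C, the Fgfr3 stretch of 200 bases 14 CpG and 65.0%, and the Fgfbp1 stretch of 221 bases 3 CpG and 55.2%. The median over 32851 promoters was 6 CpG and 52.4% G and C in 250 bases. The TCF/LEF core letters CTTTGAT and CTTTGTT, searched on both strands in the 250 bases before each start, were in none of the 7 windows of the 6 genes. CTTTGAT was in 3.21%, CTTTGTT in 5.03% and at least 1 of them in 8.06% of all promoters in the table. These letters were not looked for outside those windows.

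Fgfbp1 (chromosome 5, 43978858 to 43981779), whose product releases FGFs bound to the matrix, had levels of 12.8 and 8.32 CPM in the WT libraries, 10.1 and 18.8 CPM in those of QKO, 2.45 and 3.2 CPM in QT7 and 7.57 and 3.2 CPM in QT7L1. WT and QKO overlapped, and all 4 rescued libraries were below all 4 of WT and QKO. The log2 difference of QKO from WT was 0.46 ± 0.43 (95% interval -0.53 to 1.44, adjusted p = 0.471, edgeR). Against QKO, Fgfbp1 was 5.12-fold lower in QT7 (log2 -2.36 ± 0.46, adjusted p = 0.00824) and 2.69-fold lower in QT7L1 (log2 -1.43 ± 0.44, adjusted p = 0.0424). The QT7 call was lost without QKO replicate 2 (log2 -1.84, adjusted p = 0.0524) or QT7 replicate 1 (log2 -2.17, adjusted p = 0.0673). The QT7L1 call was lost under 8 of 13 alternatives, among them the fit with a replicate block (adjusted p = 0.0684) and the fit without QKO replicate 2 (log2 -0.90, adjusted p = 0.252).

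Nes, an intermediate filament gene of neural progenitors, was the gene most like Fgfbp1 over the 8 libraries, with 54.6 and 27.3 CPM in the WT libraries, 25.8 and 47.2 CPM in those of QKO, 9.54 and 10.6 CPM in QT7 and 15.5 and 10.1 CPM in QT7L1. The 13 neural ectoderm markers, Nes included, summed to 262.7 and 229 CPM for WT, 354.3 and 311.3 CPM for QKO and 164.9 to 193.4 in the rescued lines, with 1 of them at 0 throughout and 8 or 9 under 1 CPM in each library. Most of each sum was Tubb3 (72.4 to 173 CPM), Gbx2 (56.1 to 160 CPM) and Nes. The 16 fibroblast markers summed to 1049 to 1634 CPM, most of it Fn1 (539 to 1310 CPM) and Vim (181 to 443 CPM). The collagen gene Col1a2 differed more between libraries, with 25.6 and 11.8 CPM for WT, 34.5 and 3.91 CPM for QKO, 0.102 and 9.8 CPM for QT7 and 0.242 and 5.63 CPM for QT7L1. Over the list, the mean log2 level centred on each gene ran from 0.92 in QKO replicate 1 to -1.06 in QT7L1 replicate 1, and Lum was at 0 throughout. The part of other cells in the level of Fgfbp1 was not tested.

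**Figure D3:**
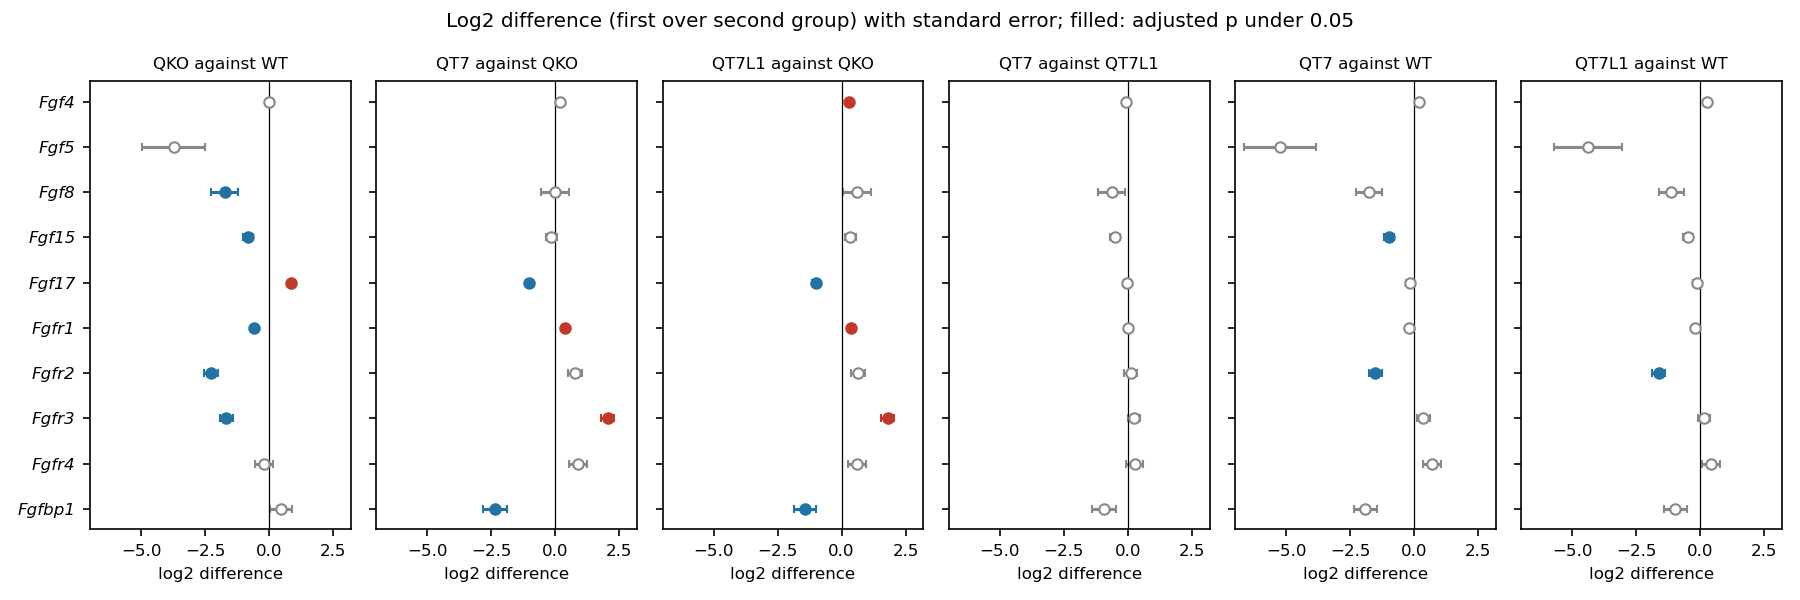
Log2 difference (x axis, first group over second) of each gene (y axis) in the 6 comparisons; points are edgeR estimates, bars 1 SE, and filled points have an adjusted p under 0.05 (red higher, blue lower). Fgf5 is drawn only against WT, because the other groups are at or near the count floor; Fgfr3 is at -1.67 in QKO against WT, 2.04 in QT7 against QKO and 1.81 in QT7L1 against QKO.

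In QT7 against QKO, 2 of the 10 genes were higher (Fgfr1 and Fgfr3) and 2 lower (Fgf17 and Fgfbp1), and 26.9% of all genes tested were called. In QT7L1 against QKO, 3 were higher (Fgf4, Fgfr1 and Fgfr3) and 2 lower (Fgf17 and Fgfbp1), and 29.7% of all genes were called. Libraries did not overlap for 7 of the 10 genes in QT7 against QKO (63.2% of all genes tested) and for 9 of 10 in QT7L1 against QKO (71% of all genes). The 3 comparisons share the QKO libraries. In the authors' deposited tables, Fgf17, Fgfr1, Fgfr3 and Fgfbp1 had an adjusted p under 0.05 for QKO against each rescued line.

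Between QT7 and QT7L1, none of the 10 genes was called in edgeR, and 1 (Fgf15) had an unadjusted p under 0.05; DESeq2 called none of them either. Over all genes 0.00606% were called, which is 1 gene, Erdr1, with 1830 at an unadjusted p under 0.05. Libraries did not overlap for 3 of the 10 genes (Fgf8, Fgf15 and Fgfbp1) and for 40.8% of all genes tested. Fgf15 was at a log2 difference of -0.50 ± 0.20 in QT7 from QT7L1 (adjusted p = 0.396), and Fgfbp1 at -0.93 ± 0.46 (adjusted p = 0.494). Without the filter on low counts Fgfbp1 was called (adjusted p = 0.00936). The 95% intervals were narrow for Fgfr1 (-0.21 to 0.22), Fgf4 (-0.28 to 0.12) and Fgf17 (-0.32 to 0.27) and wider for Fgfr2 (-0.46 to 0.68), Fgfr3 (-0.30 to 0.76) and Fgfr4 (-0.51 to 1.05).

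Against WT, 2 of the 10 genes were called in QT7 (Fgf15 and Fgfr2) and 1 in QT7L1 (Fgfr2), and these were lower. Over all genes tested, 4.62% were called in QT7 (2.25% lower) and 0.745% in QT7L1 (0.448% lower). Libraries did not overlap for 8 of the 10 genes in each comparison, against 47.6% of all genes for QT7 and 50.8% for QT7L1; Fgf5, which passed the filter through WT alone, is among the 8 in both. Fgfr2 was 2.84-fold lower in QT7 (log2 -1.5 ± 0.26, adjusted p = 0.0134) and 3.06-fold lower in QT7L1 (log2 -1.61 ± 0.26, adjusted p = 0.0266, edgeR). The QT7 call of Fgfr2 was lost without WT replicate 2 (log2 -1.24, adjusted p = 0.0725) and in the fit of the 4 libraries alone (adjusted p = 0.0538), and that of QT7L1 without either WT or either QT7L1 replicate, with adjusted p of 0.0955 to 0.238. Fgf15 was 1.98-fold lower in QT7 (log2 -0.98 ± 0.20, adjusted p = 0.0253); this call was lost without either WT replicate (adjusted p = 0.182 and 0.0545), without QT7 replicate 1 (0.0808) and in the fit of the 4 libraries alone (0.0912). Fgfbp1 was 3.73-fold lower in QT7 than in WT but not called in the main edgeR fit (log2 -1.90 ± 0.46, adjusted p = 0.056). It was called with DESeq2 (adjusted p = 1.76e-05), and in edgeR without the filter (7.13e-12) and with the 4 libraries alone (0.0481). In QT7L1 its log2 difference from WT was -0.97 ± 0.44 (adjusted p = 0.347, edgeR), called without the filter (0.00304). Fgf5 was not called in either rescued line in the main edgeR fit (adjusted p = 0.08 in QT7 and 0.185 in QT7L1). It was called lower than WT in edgeR without the filter (1.19e-14 in QT7 and 3.77e-11 in QT7L1). DESeq2 also called it lower (8e-04 and 0.00851). In the authors' deposited tables Fgf5 and Fgfr2 had an adjusted p under 0.05 for WT against both rescued lines, and Fgf15 and Fgfbp1 for WT against QT7.

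Other genes of the pathway were counted from lists. Of 13 other secreted FGF ligands 6 were tested, and 1 was called in QKO against WT: Fgf18, at 2.74 ± 0.55 (SD, n = 2) CPM in WT and 0.866 ± 0.048 in QKO (log2 -1.66 ± 0.37, adjusted p = 0.0104, edgeR), a call lost without WT replicate 1 or either QKO replicate. Fgf18 was also called lower than WT in the rescued lines, at 0.397 ± 0.056 CPM in QT7 and 0.501 ± 0.23 in QT7L1, although not without WT replicate 1. Of the 9 co-receptors and binding proteins tested, 1 was higher and 2 lower in QKO against WT. Beside the counts of both lists, 26.4% of all genes tested were called in QKO against WT. Fgfrl1, a receptor-like protein without a kinase domain, was at 9.19 ± 1.5 CPM in WT, 3.94 ± 0.39 in QKO, 7.45 ± 0.72 in QT7 and 9.25 ± 0.27 in QT7L1, and was called in all 3 comparisons with QKO; the QT7 call was lost without either QKO replicate (adjusted p up to 0.0766).

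Heparan sulfate genes, which make the co-receptor on which FGF signalling depends, had 2 higher and 11 lower of 25 tested in QKO against WT, with a median log2 difference of -0.46 (-0.01 over all genes) and 26.4% of all genes tested called. Against QKO, 7 were called in QT7, each of them higher, and in QT7L1 5 were higher and 2 lower, when 26.9% and 29.7% of all genes tested were called. Gpc3, a glypican on the cell surface, was at 23.6 ± 2.1 CPM in WT, 7.25 ± 1.3 in QKO, 28.3 ± 12 in QT7 and 20.3 ± 1.5 in QT7L1. Another glypican, Gpc4, went the other way, at 23.5 ± 3.4 CPM in WT, 44.8 ± 4.5 in QKO, 34.4 ± 2.5 in QT7 and 21.9 ± 0.58 in QT7L1, and was called against QKO in QT7L1 but not in QT7 (adjusted p = 0.0652). Hs6st2, which adds 6-O-sulfate to heparan sulfate, was at 4.68 ± 0.50 CPM in WT, 1.29 ± 0.41 in QKO, 0.66 ± 0.14 in QT7 and 0.729 ± 0.0029 in QT7L1, and was called lower than WT in QKO and both rescued lines.

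Of 26 receptor adaptors and RAS/ERK cascade genes, 2 were higher and 3 lower in QKO against WT, with a median log2 difference of 0.06; over all genes tested 26.4% were called. Frs3, an adaptor that docks on FGF receptors, was at 13.6 ± 1.9 CPM in WT, 5.87 ± 1.0 in QKO, 15.9 ± 0.54 in QT7 and 16.5 ± 0.92 in QT7L1. Map2k2, a MEK kinase, was at 68.8 ± 0.87 CPM in WT, 111.6 ± 2.1 in QKO, 66.5 ± 3.2 in QT7 and 67.6 ± 9.1 in QT7L1. Both genes were called in all 3 comparisons with QKO, under all 13 alternatives. Sos2, an exchange factor for RAS, fell in QKO from 10.9 ± 0.44 to 3.61 ± 1.0 CPM (adjusted p = 0.00192).

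Of 19 ERK feedback and response genes, 3 were higher and 6 lower in QKO against WT, with a median log2 difference of -0.09; 2 were higher and 6 lower in QT7 against QKO, and 3 and 3 in QT7L1 against QKO. Over all genes tested, 26.4%, 26.9% and 29.7% were called in these comparisons. Members moved in both directions in the same comparison. Etv4, an ETS factor induced by ERK, rose in QKO from 186.7 ± 15 to 288.3 ± 4.4 CPM (adjusted p = 0.00636), and Phlda1 from 10.1 ± 0.77 to 21.6 ± 2.0 CPM (adjusted p = 0.00247). Ier3, an immediate early gene, fell from 15.1 ± 5.4 to 5.64 ± 0.38 CPM (adjusted p = 0.00473), and Spry1, a feedback inhibitor of receptor signalling, from 28.7 ± 3.6 to 16.7 ± 1.6 CPM (adjusted p = 0.00477, lost without WT replicate 2). Dusp4, an ERK phosphatase, was at 33.1 ± 1.7 CPM in WT, 13.4 ± 2.7 in QKO, 9.90 ± 4.1 in QT7 and 8.70 ± 2.4 in QT7L1, and was called lower than WT in QKO (adjusted p = 0.0124) and in both rescued lines, the latter calls being lost without either WT replicate.

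**Figure D4:**
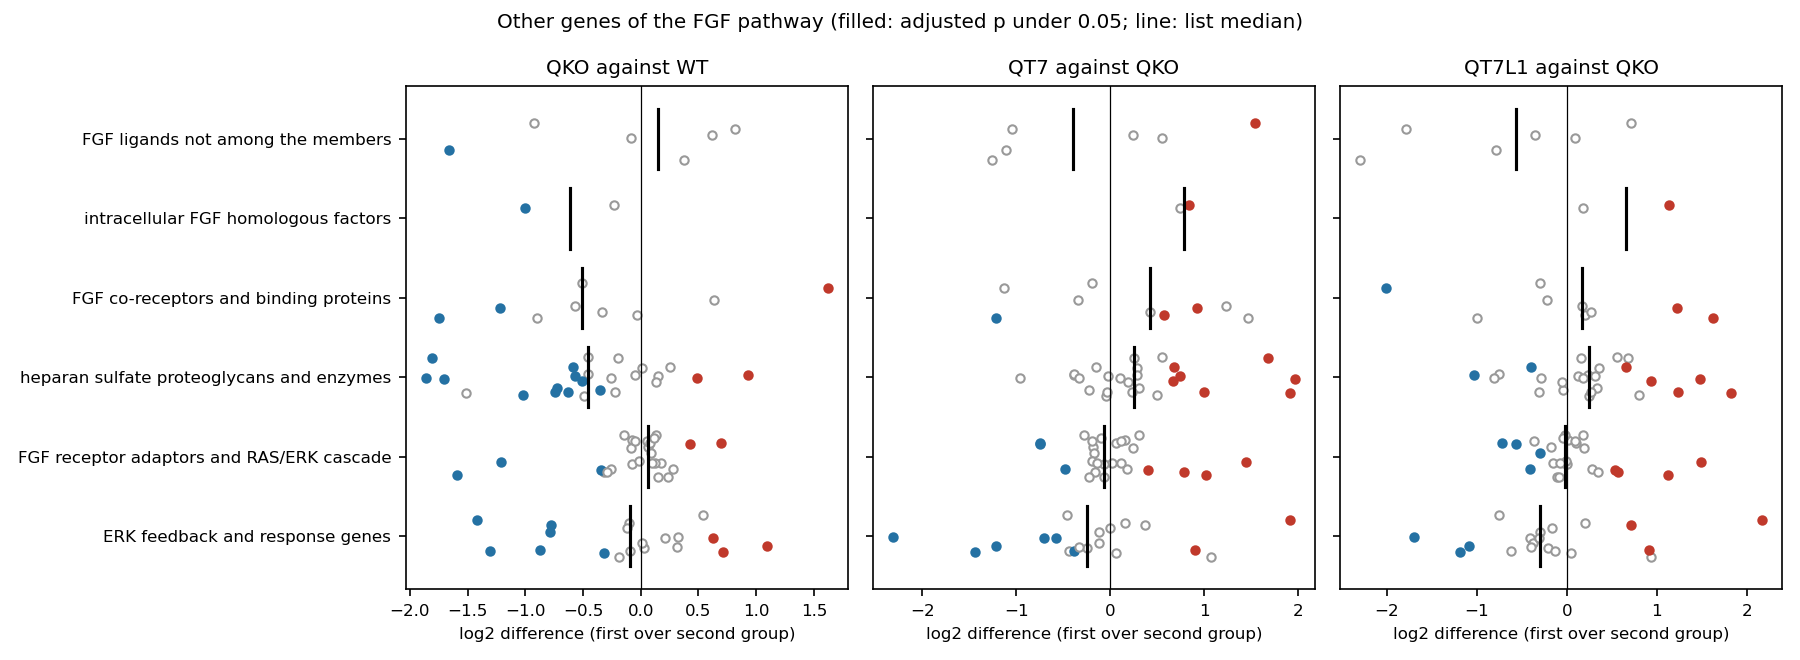
Log2 difference (x axis, first group over second) of the tested genes of 6 pathway lists (y axis) in the 3 comparisons with QKO; each point is 1 gene, filled points have an adjusted p under 0.05 (red higher, blue lower), and the black line is the median of the list. The heparan sulfate list has 11 filled points below 0 in QKO against WT and 7 above 0 in QT7 against QKO.

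Likeness of pattern was measured as the root mean square difference of log2 CPM, each gene centred on its mean, over the 8 libraries among 10183 genes. The genes nearest to Fgfr2 were Sp6 (0.26), Inadl (0.29) and Ptch1 (0.30), and those nearest to Fgfr3 were P4ha1 (0.18), Mettl7a1 (0.20) and Arhgef4 (0.20). Nearest to Fgfr1 were Zfp609, Snx10 and Notch2, at 0.06 each. Among the ligands, the nearest were Zcchc10 (0.04), Dnaja1 (0.06) and Toe1 (0.07) to Fgf17, Chst10 (0.10), Gareml (0.14) and Serpini1 (0.15) to Fgf15, Tmem47 (0.29), Arl4c (0.30) and Pou3f1 (0.35) to Fgf8, and Tmem194 (0.03), Ndufb6 (0.04) and Tti1 (0.04) to Fgf4. Nes (0.32), Ina (0.47) and Anxa3 (0.49) were nearest to Fgfbp1. These distances are descriptions over libraries that share a group and a depth, and a gene that varies little has near neighbours whatever its pattern.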

How the data were processed

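Gene expression was measured by RNA sequencing of poly(A) RNA with a stranded TruSeq kit from 250 ng of total RNA, per the labels. Per the submitters' processing notes, reads were processed with bcl2fastq 1.8.4, STAR 2.4.0f1 and HTSeq on the mm10 (GRCm38) build; DESeq2 is listed there under version 2.1.8.3, with its settings, the strand setting of the counting, the annotation and the treatment of shared reads not given in the sources used here. Each deposited library file holds raw counts per Ensembl gene, as the values show. The authors' deposited comparison tables give, per the file headers, a mean normalised signal, a log2 fold change and its standard error, a test score, and a p-value with its adjusted p-value; these were used for gene symbols and as values named as the authors'. Among the symbols, 27 had been turned into dates or were blank and were taken from the gene name table.

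The counts were fitted with edgeR 4.0.16 (R 4.3.3): filterByExpr defaults (16515 of 47729 genes kept), TMM factors of 0.955 to 1.028, and 1 robust quasi-likelihood fit with a mean per group over the 8 libraries (4 residual degrees of freedom), 2-sided tests, and Benjamini-Hochberg adjustment over all genes tested, called under 0.05. The SE is the absolute log2 difference divided by the square root of F. With 2 libraries a group the spread per gene comes from the 4 groups together. Levels are CPM on TMM-scaled library sizes; between genes they are compared per kilobase of exon (GENCODE M21). Alternatives were DESeq2 1.42.0, its size factors in edgeR, no filter, the 4 libraries of a comparison alone, a replicate block, and each library left out.

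All 10 genes are named throughout. From each pathway list, examples come from up to 4 called genes with the smallest adjusted p in the comparisons with QKO and up to 2 in the others, and the 3 most like genes are named for each of the 10 with a call. Fgf3 is named as a neighbour, and Afp, Ttr, Lum, Cer1, T, Evx1, Col1a2, Fn1, Vim, Lama1, Lamb1, Col4a1, Col4a2, Hnf4a, Sox7, Lef1 and Erdr1 were named after their values were seen. The same holds for Tubb3, Gbx2, Dnmt3a, Dnmt3b, Nodal, Foxd3 and Sox3. The 10 genes and the lists were chosen with earlier results of these data known.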

Additional observations from a re-analysis of the deposited data

How the results depend on the processing

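In QKO against WT, QT7 against QKO and QT7L1 against QKO the counts of genes called over the whole table stayed within 1.5 times the reported ones under the alternatives that kept all 8 libraries, or the 4 of the comparison. Without the filter on low counts, QT7 against QT7L1 gave 1030 genes and 1 of the 10, QT7 against WT gave 2203 and 6, and QT7L1 against WT gave 1248 and 3. DESeq2 gave 232 genes for QT7 against QT7L1, 1304 and 4 for QT7 against WT, and 575 and 2 for QT7L1 against WT. With only the 4 libraries of the 2 groups, the values were 20 genes for QT7 against QT7L1, 117 and 1 for QT7 against WT, and 614 genes for QT7L1 against WT; Fgf5 did not pass the filter in the 3 of these fits without WT. The cause of these shifts was not tested.

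With a replicate block, 3 rather than 5 of the 10 were called in QT7L1 against QKO (Fgf4 and Fgfbp1 lost) and 2 genes in QT7 against QT7L1. Same-numbered libraries correlated in their deviations from the group means at -0.21 (QKO and QT7) to 0.16 (WT and QT7), and the labels do not link the clones, so they share only a number. The block changed no other call among the 10 genes.

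Leaving out 1 library at a time, which assumes that the lone library of a group varies like the others, gave 4 to 7 of the 10 called for QKO against WT, 3 to 5 for QT7 against QKO, 2 to 4 for QT7L1 against QKO, 0 to 0 for QT7 against QT7L1, 1 to 3 for QT7 against WT and 0 to 1 for QT7L1 against WT. Over all genes the ranges were 1272 to 5497, 1432 to 4355, 1704 to 5971, 0 to 1564, 52 to 2023 and 0 to 517 in that order, and the lowest counts in the first 3 came without QKO replicate 2. No called difference of the 10 genes changed sign. Among log2 differences not called, the leave-one-out ranges that crossed 0 were, in QKO against WT, -0.019 to 0.034 for Fgf4, -0.859 to 0.253 for Fgfr4, -0.073 to 0.827 for Fgfbp1, in QT7 against QKO, -0.249 to 0.187 for Fgf8, -0.377 to 0.05 for Fgf15, in QT7 against QT7L1, -0.113 to 0.056 for Fgf17, -0.027 to 0.039 for Fgfr1, -0.127 to 0.388 for Fgfr2, -0.012 to 0.518 for Fgfr3, -0.087 to 0.551 for Fgfr4, in QT7 against WT, -0.339 to 0.02 for Fgf17, in QT7L1 against WT, -0.309 to 0.051 for Fgf17, -0.142 to 0.406 for Fgfr3. The sign also turned for Fgf8 in QT7 against QKO without the filter (0.001). For Fgfr1 in QT7 against QT7L1 the DESeq2 value rounded to 0.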
